A study of Mus musculus with 96 samples.

Results

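Cytosolic ribosomal protein genes were followed through all 16 combinations of treatment and time in mouse RAW 264.7 cells, an established macrophage line. Genes were taken by their platform symbol, Rpl, Rps or Rplp followed by a number, leaving out the Rps6k kinases and pseudogene names. This gave 69 of the 10698 named genes on the array, each with 1 probe, of which 43 encode proteins of the large subunit, 3 proteins of the P stalk and 23 proteins of the small subunit. The symbol rule also took in Rpl7l1, a relative of Rpl7 linked to large subunit assembly, and the paralogues Rpl3l, Rpl22l1, Rpl36al, Rpl39l and Rps27l.

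Each of the 96 arrays set RNA of treated cells in 1 dye against RNA of untreated cells of the same time in the other dye, so the values are ratios and hold no level of any gene. Cells received lipopolysaccharide (LPS) at 100 ng, always together with LPS binding protein at 100 pM. Others received 5 nM of interferon gamma (IFNG), or 500 µM of 2-methyl-thio-ATP (2MA), an agonist of purine receptors. The remaining groups received LPS together with IFNG or with 2MA at these doses. LPS was sampled at 30 min and at 1, 2 and 4 h, and the other treatments at 1, 2 and 4 h. Each group held 3 numbered sets, and each set had 2 arrays with the dyes exchanged. The labels do not state whether the sets were separate cultures. P-values here therefore reflect only how the sets varied, and that variation could be technical. An array held a nonzero ratio for 13508 to 15004 of 16281 probes. The direction of the ratios was checked on Tnf, the tumour necrosis factor gene, whose mean log2 ratio was 3.30 after 1 h of LPS and above 0 on 6 of 6 arrays. Of 9 macrophage markers on the array, 7 had a value on at least 90 arrays, but so did 12 of 12 markers of other cell types, so the presence of a ratio did not separate cell types here.

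The cytosolic ribosome is built from ribosomal RNA and a set of proteins made in matched amounts, and the genes of these proteins are among the most actively transcribed in growing cells. Their messages typically begin with a C followed by a run of pyrimidines, the terminal oligopyrimidine (TOP) motif, through which mTOR signalling and the protein Larp1 control how strongly the messages are translated. That control acts on translation, which a ratio of total RNA does not measure. Several ribosomal proteins also act outside the ribosome: Rps3 has been described in NF-kB complexes, Rpl5 and Rpl11 bind Mdm2, and Rpl13a takes part in a complex that silences messages in interferon-treated myeloid cells.

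The annotated transcription starts of the genes called in at least 1 response are shown to place the TOP motif. Of the 69 genes, 57 matched a RefSeq promoter (GRCm38.p6). Of the called genes, Rplp1 and Rps20 did not match. In 12 of the 57, or 21.1%, an annotated start was a C followed by at least 4 bases that were each C or T, read on the transcribed strand, against 3.0% of the 27025 genes in the same table. A C or T run of at least 8 bases over the start was present in 15 of the 57, against 4.6% of all genes. Each line gives 20 bases before the start and 10 from it, with the unbroken C or T run that holds the first transcribed base in capitals; where a gene had several starts, the start with the longest run was taken.
Rpl35a (chr16:33056462-33056491, plus strand): gcgcggcggggcttgCCTTCCTCTTTCCgc
Rpl13 (chr8:123102330-123102359, plus strand): gtcacttccctttcgcctgaTTTTgattgg
Rps28 (chr17:33824553-33824582, minus strand): tcctgggtaccgcgtgcggTCTCgcgagag
Rpl7l1 (chr17:46782647-46782676, minus strand): gcccggtgaggctgcgcaagCgcagtagct
Rpl41 (chr10:128549159-128549188, minus strand): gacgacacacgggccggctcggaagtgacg
Rpl36a (chrX:134585634-134585663, plus strand): aggaagtgcacccaggcaccgcctataaac
Rps27l (chr9:66946066-66946095, plus strand): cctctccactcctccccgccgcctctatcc
Among these, the Rpl35a start alone lay in a long run, of 13 bases. The annotated starts of Rpl41, Rpl36a and Rps27l began on a G, and no run held them. Among the 24 matched genes that were tested, 3 had a C followed by at least 4 pyrimidines (Rpl14, Rpl35a and Rpl38), and among the 33 matched genes that were not tested, 9 did. A match describes these letters at the annotated start and was not taken as a site in use.

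Fewer of the ribosomal protein genes gave a ratio than other genes did. A value of exactly 0 was read as no measurement, and the 69 genes had a value at 63.2% of their array positions, against 92.7% for all named probes. There were 18 genes with a value on all 96 arrays, 27 on 48 to 95 arrays, 18 on 1 to 47 arrays and 6 on none. The 6 without any value were Rpl5, Rpl12, Rpl35, Rps14, Rps26 and Rps29. The share of positions with a value also differed between the sets, at 69.2% in set 1, 64.6% in set 2 and 55.8% in set 3, while for all named probes it lay between 92.6% and 92.7%. Over the groups it ran from 56.8% in 2MA at 4 h to 71.3% in LPS with IFNG at 1 h.

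A gene was tested where every group had a ratio in at least 2 of its 3 sets, and 32 of the 69 passed, or 46.4%, against 86.3% of named probes. The 32 comprised 25 large subunit genes, Rplp1 of the P stalk, and 6 small subunit genes (Rps3, Rps7, Rps20, Rps25, Rps27l and Rps28), so the small subunit was thinly represented. Genes that did not pass included Rps6, the substrate of S6 kinase, with a value on 1 array, Rps4x on 5, Rpl13a on 8, Rps27 on 17, the widely used reference gene Rplp0 on 51 and Rplp2 on 77. Their responses were not tested. Rplp0, for example, had both dye orientations in 18 of 48 sets, with set values of -0.21 to 0.33 on the log2 scale.

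**Figure D1:**
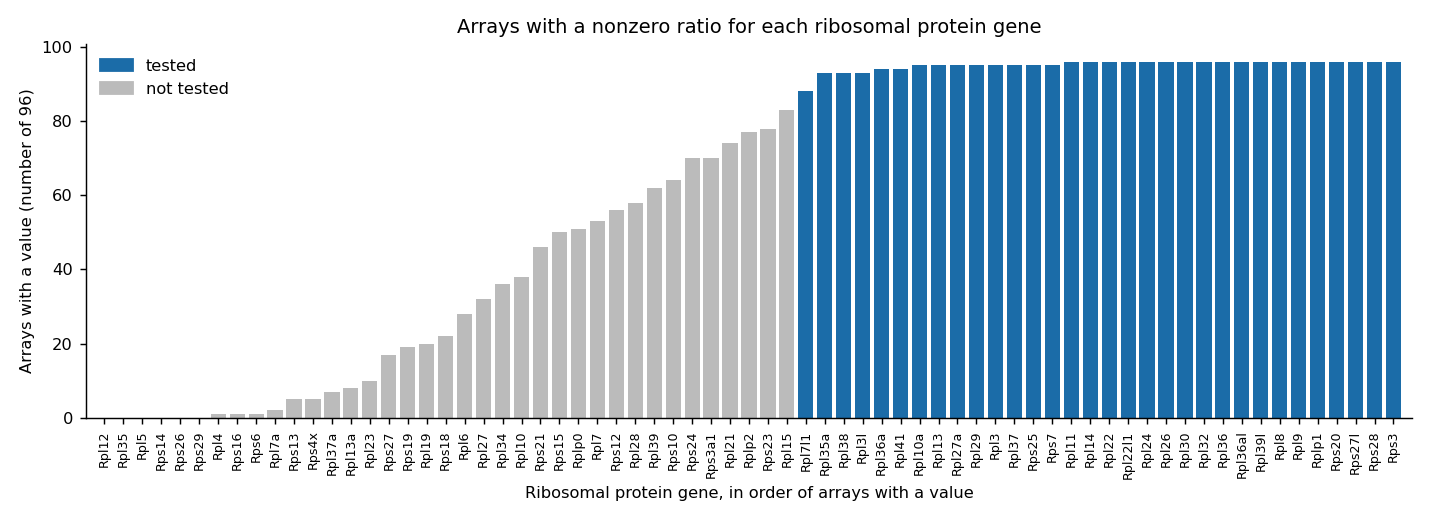
Number of the 96 arrays with a nonzero ratio (vertical axis) for each of the 69 ribosomal protein genes (horizontal axis, in rising order); blue bars are the 32 genes tested and grey bars the 37 that were not. The bars run from 0 for 6 genes to 96 for 18 genes, and every tested gene stands to the right of every gene that was not tested.

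The tested ribosomal protein genes moved little. The values are log2 ratios of treated over untreated, where a set value is the mean of both dye orientations and ± is the SD over sets. Over 16 groups the 32 genes gave 512 mean responses, from 0.698-fold to 1.433-fold, and 0 genes passed 2-fold in any group, against 9.85% of all 11593 features tested. At an adjusted p under 0.05 (limma, Benjamini-Hochberg over all features) 13 of the 512 were called, 6 up and 7 down. That is 2.54%, against 12% of responses over all features. At least 1 call was made for 9 of the 32 genes, or 28.1%, against 49.4% of features. The SD of a gene's 16 means had a median of 0.118 among the 32 genes and 0.124 among all features. Their residual SD, the spread between sets, had a median of 0.207 against 0.196, so a group mean had a standard error of about 0.118 and small shifts could not be told from 0.

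The calls depended on which sets were used. Without set 1 in every group 2 of the 13 calls were kept, and those 2 were all that was called (Rpl41 in LPS at 2 h and Rpl7l1 in LPS with 2MA at 4 h). Without set 2 there were 17 calls, 7 of them among the 13, and without set 3 there were 7 calls, 6 of them among the 13. Without set 1, 2 and 3 the calls made up 0.391%, 3.32% and 1.37% of the 512. Over all features, 7.39%, 10.9% and 9.95% of responses were called in these fits, against 12% with all sets. The fall of Rpl41 was called under each of the 3 omissions. When all arrays were scaled to a common spread the calls split into 1 up and 10 down, in place of 6 up and 7 down. That was 2.15% of the 512, against 10.4% of responses over all features. Taking the set number as a block gave 25 calls (11 up, 14 down), or 4.88% of the 512, which included all 13, against 14.5% of responses over all features.

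**Figure D2:**
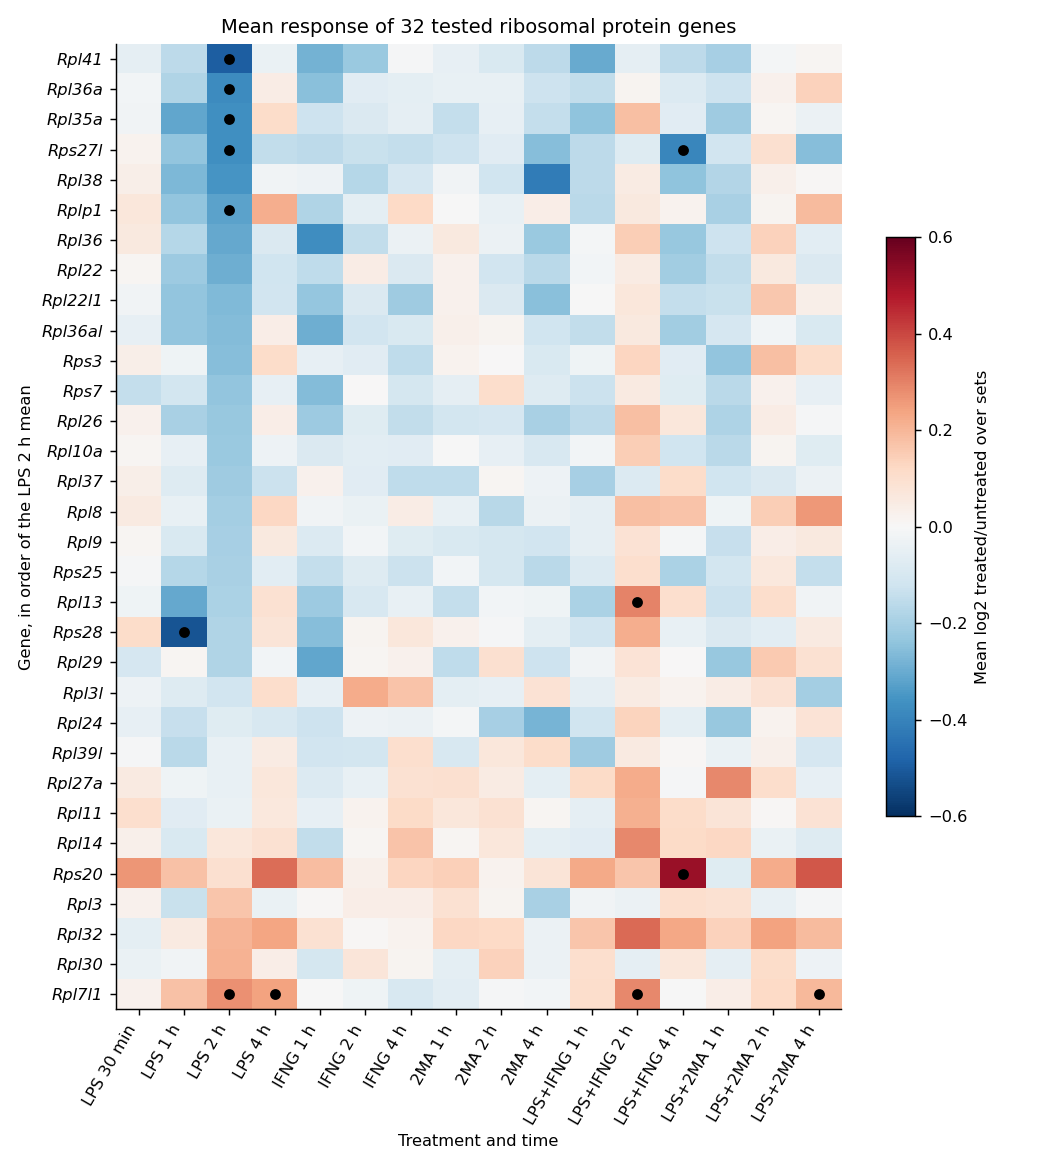
Mean log2 ratio of treated over untreated (colour, -0.6 to 0.6) for the 32 tested genes (rows, ordered by the mean at LPS 2 h) in 16 treatment and time groups (columns); black dots mark the 13 calls at an adjusted p under 0.05. Most rows are blue at LPS 2 h, 6 dots stand in that column, and no dot stands in the IFNG or 2MA columns.

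LPS alone gave the most calls, and most of them were falls at 2 h. At 30 min the median over the 32 genes was 0.01, with 0 genes called by limma (1.04% of features) and 0 with an unadjusted p under 0.05 (3.38% of features). At 1 h the median was -0.14 with 28 of 32 genes below 0, and 1 gene was called, or 3.12%, against 5.61% of features. At 2 h the median was -0.20 with 26 of 32 below 0, against a median of -0.01 over all features. There 6 of 32 genes, or 18.8%, were called, against 16% of features; 5 fell and 1 rose, against 8.18% of features down and 7.84% up. At 4 h the median was 0.04 with 19 of 32 above 0, and 1 gene was called, or 3.12%, while 28.6% of features were. In that group 24.9% of all features had moved further than the ribosomal protein gene that moved most.

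The fall at 2 h was not shared by the sets. The median over the tested genes was -0.32 in set 1, 0.04 in set 2 and -0.34 in set 3, and 27, 13 and 22 of 32 genes were below 0. In place of 6, there was 1 gene called without set 1, 12 without set 2 and 3 without set 3. Over all features and groups, 7.39%, 10.9% and 9.95% of responses were called in these fits. The share of features at LPS 2 h alone was not computed for them. At 1 h the set medians were closer, at -0.10, -0.19 and -0.14, and all of them were below 0.

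Rpl41, which encodes the smallest protein of the large subunit, fell most at 2 h of LPS. Its set values were -0.52, -0.31 and -0.65, a mean of -0.50 ± 0.17 (SD, n = 3 sets), with an adjusted p of 0.000497 in limma's test. All 6 arrays were below 0, from -0.85 to -0.04. It was not called at 30 min (-0.06), 1 h (-0.16) or 4 h (-0.04).

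Rpl35a, a large subunit protein whose human counterpart is mutated in some Diamond-Blackfan anaemia families, had set values of -0.30, -0.21 and -0.60 at LPS 2 h. The mean was -0.37 ± 0.20 (SD, n = 3 sets; limma adjusted p 0.00896), and all 6 arrays were below 0. Its means were -0.02 at 30 min, -0.31 at 1 h (2 sets) and 0.11 at 4 h, and the 4 times differed in limma's F test (adjusted p 0.0441). The 2 h call was lost without set 1 and without set 3.

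Rplp1 encodes P1, an acidic protein of the stalk that recruits elongation factors. Its set values at LPS 2 h were -0.42, -0.10 and -0.45, a mean of -0.32 ± 0.19 (SD, n = 3 sets; limma adjusted p 0.0133), with 5 of 6 arrays below 0. At 4 h the set values were 0.44, 0.15 and 0.06, none of which overlapped those at 2 h, and the mean of 0.22 was not called (limma adjusted p 0.0844). Over the 4 LPS times Rplp1 changed in the F test (limma adjusted p 0.00548), while 2 of the 32 genes did and 16.7% of features did. With the set number as a block 4 genes did, Rpl41 and Rps28 in addition. The share of features in that blocked F test was not computed. Without set 1 none of the 32 was called for a change over the LPS times. The 2 h call of Rplp1 was lost without set 1 and without set 3.

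Rpl36a and Rps27l also fell at LPS 2 h, with wider spread. The Rpl36a set values were -0.68, 0.04 and -0.49, a mean of -0.38 ± 0.37 (SD, n = 3 sets; limma adjusted p 0.0163), so set 2 showed no fall. For Rps27l, a paralogue of Rps27 known as a p53 target, they were -0.63, -0.08 and -0.40, a mean of -0.37 ± 0.27 (SD, n = 3 sets; limma adjusted p 0.0138). Both calls were lost without set 1 and without set 3. Rpl36al, a near-identical copy of Rpl36a that a probe may not tell apart from it, had set values of -0.64, -0.12 and -0.02 and was not called (limma adjusted p 0.0582). With the set number as a block Rpl36al, Rpl38 and Rpl26 were called down as well, at limma adjusted p values of 0.032, 0.0209 and 0.0336, and 20.6% of features were called. A block for each set within a time, added after the data were seen, called 15 of 32 genes at LPS 2 h, against 25.8% of features. Rpl7l1 alone rose among them.

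Rps28, a small subunit protein near the exit of the message channel, was the 1 gene called at LPS 1 h. Its set values were -0.91, -0.50 and -0.15, a mean of -0.52 ± 0.38 (SD, n = 3 sets; limma adjusted p 0.0143), and all 6 arrays were below 0, from -1.43 to -0.01. The spread over sets was the widest of the called responses, and the call was lost without set 1 and without set 2. The mean was -0.18 at 2 h and 0.08 at 4 h, neither of them called. With the set number as a block, Rpl13 and Rpl35a were called down at LPS 1 h too (limma adjusted p 0.0331 and 0.0494; 7.57% of features called).

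Rpl7l1 was the exception among the falls at LPS 2 h, and it is a relative of Rpl7 rather than a standard member of the ribosome. Its set values were 0.24, 0.41 and 0.18, a mean of 0.28 ± 0.12 (SD, n = 3 sets; limma adjusted p 0.00734), and all 6 arrays were above 0. At LPS 4 h its 2 sets with a value were 0.25 and 0.23 (limma adjusted p 0.0431), and at LPS with IFNG at 2 h they were 0.23 and 0.35 (limma adjusted p 0.0179). At LPS with 2MA at 4 h they were -0.005, 0.27 and 0.32, a mean of 0.20 ± 0.18 (SD, n = 3 sets; limma adjusted p 0.0359). These made up 4 of the 6 rises in the whole set of calls. The LPS 2 h call was lost without set 1 and without set 2, and the LPS with 2MA call without set 2 and without set 3. The LPS 4 h call was lost without set 3, which held no value of this gene there. At LPS 4 h and at LPS with IFNG 2 h, leaving out set 1 or 2 left 1 set, assumed to vary like the other groups. Its value without set 1 and without set 2 was 0.23 and 0.25 at LPS 4 h, and 0.35 and 0.23 at LPS with IFNG 2 h. From Cy5 arrays alone all 4 were called. From Cy3 arrays alone none was, at 0.14, 0.09, 0.18 and 0.02 in the order given. The dye effect of Rpl7l1, as defined with the dyes below, was 0.15, and it does not cancel in arrays of 1 orientation. With a dye term on all 96 arrays all 4 were called (limma adjusted p 0.000598 to 0.0104). Without this gene the calls in LPS at 4 h and in LPS with 2MA at 4 h were 0. With IFNG or 2MA alone its means lay between -0.09 and -0.004, and it was not called.

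IFNG alone gave no call at any time. At 1 h the median was -0.12 with 28 of 32 genes below 0 and all 3 set medians below 0 (-0.13, -0.10 and -0.19). There 0 genes were called by limma against 1.13% of features, and 6 of 32 (18.8%) had an unadjusted p under 0.05, against 5.18% of features. The lowest mean was that of Rpl36, a large subunit gene, at -0.37. At 2 h the median was -0.05, with 0 genes called (3.43% of features) and 1 with an unadjusted p under 0.05 (9.47% of features). At 4 h it was -0.04, with 0 genes called (12.3% of features) and 0 with an unadjusted p under 0.05 (22% of features).

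2MA alone gave no call either. The medians at 1, 2 and 4 h were -0.02, -0.02 and -0.09, and by limma 0 genes were called at any time, against 1.41%, 1.33% and 2% of features. The genes with an unadjusted p under 0.05 numbered 0, 0 and 2 of 32, against 11%, 8.07% and 10.9% of features. At 4 h 27 of 32 genes were below 0, with set medians of -0.27, 0.07 and -0.07, so the sets did not share a side of 0. Rpl38 had the lowest mean there, -0.42, and it was called with the set number as a block (limma adjusted p 0.0358; 3.45% of features called).

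LPS with IFNG gave 0 calls at 1 h (median -0.06; limma; 7.62% of features called), where 2 genes had an unadjusted p under 0.05 (16.6% of features), and 2 at 2 h and at 4 h each, or 6.25%, against 20.8% and 34% of features. At 2 h the median was 0.10 with 27 of 32 genes above 0, and the set medians were 0.08, 0.29 and -0.09. Rpl13, a large subunit protein, rose at 2 h, with set values of 0.42, 0.29 and 0.17, a mean of 0.30 ± 0.13 (SD, n = 3 sets; limma adjusted p 0.0267). All 6 of its arrays were above 0, whereas at LPS 1 h 5 of 6 were below 0, at a mean of -0.31. Rpl13 was the 1 gene whose response changed over the times of LPS with IFNG (limma F test, adjusted p 0.0341; 17.2% of features did). Its 2 h call and its change with time were lost when any 1 set was left out. With the set number as a block 5 genes were called up at 2 h (Rpl7l1, Rpl13, Rpl11, Rpl14 and Rpl32), against 24.9% of features called. With that block Rpl35a changed with time as well, and the share of features that did was not computed.

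At 4 h of LPS with IFNG, Rps20 rose and Rps27l fell. Rps20, a protein of the small subunit head, had set values of 0.74, 0.58 and 0.24, a mean of 0.52 ± 0.25 (SD, n = 3 sets; limma adjusted p 0.0137), with all 6 arrays above 0. This was the largest mean of any tested ribosomal protein gene. Its mean was above 0 in 15 of 16 groups, for example 0.33 at LPS 4 h and 0.37 at LPS with 2MA 4 h, neither of them called without a block. The fit with the set number as a block called both (limma adjusted p 0.0478 and 0.022). Rps27l had set values of -0.66, -0.24 and -0.27, a mean of -0.39 ± 0.23 (SD, n = 3 sets; limma adjusted p 0.00356), with all 6 arrays below 0. Its mean was below 0 in 14 of 16 groups. Both 4 h calls were lost without set 1, and without set 2 there were 5 calls in that group. In the fit without set 2, 10.9% of responses over all features and groups were called.

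LPS with 2MA gave 0 calls at 1 h (median -0.12) and at 2 h (median 0.04) by limma, against 5.45% and 17.8% of features. There 2 and 0 genes had an unadjusted p under 0.05, against 12.4% and 26.5% of features. At 4 h 1 gene was called, Rpl7l1, or 3.12% against 33.4% of features. At 4 h the median was -0.01. The block fit called 3 genes there, with Rps20 up and Rps27l down (-0.26) besides Rpl7l1, against 37.5% of features. The set medians at 2 h were 0.11, 0.23 and -0.24, the widest spread of the 16 groups.

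**Figure D3:**
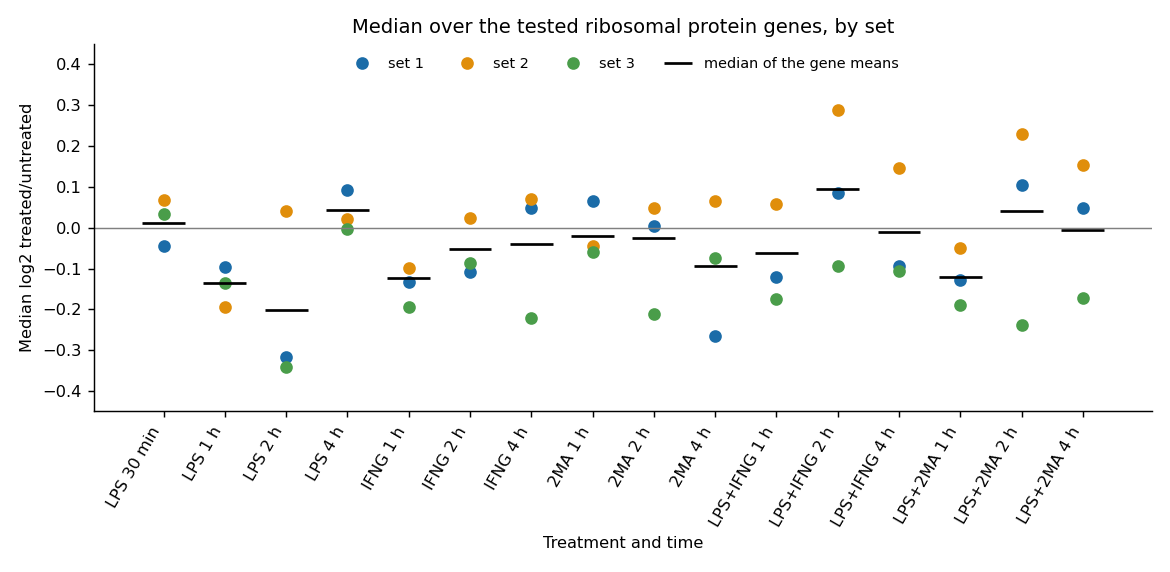
Median log2 ratio of treated over untreated over the tested ribosomal protein genes (vertical axis) in each of 3 sets (coloured points) for 16 groups (horizontal axis); black lines are the medians of the gene means. Set 3 is lowest in 12 groups and set 2 highest in 13, and all 3 points lie on 1 side of 0 in 3 groups, LPS, IFNG and LPS with 2MA at 1 h.

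The sets stood apart in the same order in most groups. The median of set 3 was the lowest of the 3 in 12 of 16 groups and that of set 2 the highest in 13. Averaged over the groups, the set medians were -0.05, 0.05 and -0.14 for sets 1, 2 and 3. Set 3 was also the set with the fewest values for these genes. The part of either in the results was not tested.

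The dyes also shifted these genes. On the 48 arrays with treated RNA in Cy5 the median over the tested genes was below 0 on 40, and on the 48 with treated RNA in Cy3 it was below 0 on 22. The Cy5 array lay below the Cy3 array in 41 of 48 sets. The dye effect of a gene, the mean of the Cy5 arrays minus the mean of the Cy3 arrays divided by 2, had a median of -0.11 over the 32 genes and -0.001 over all features, ranging from -0.29 to 0.68, the last for Rpl30. A set value averages both orientations, so a constant dye effect cancels in it. From Cy5 arrays alone 89 responses were called (41 up, 48 down) and from Cy3 arrays alone 26 (12 up, 14 down), of which 11 and 2 were among the 13. These calls made up 17.4% and 5.08% of the 512 responses. Over all features, 19.2% and 14.4% of responses were called in these fits, against 12% with both orientations.

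**Figure D4:**
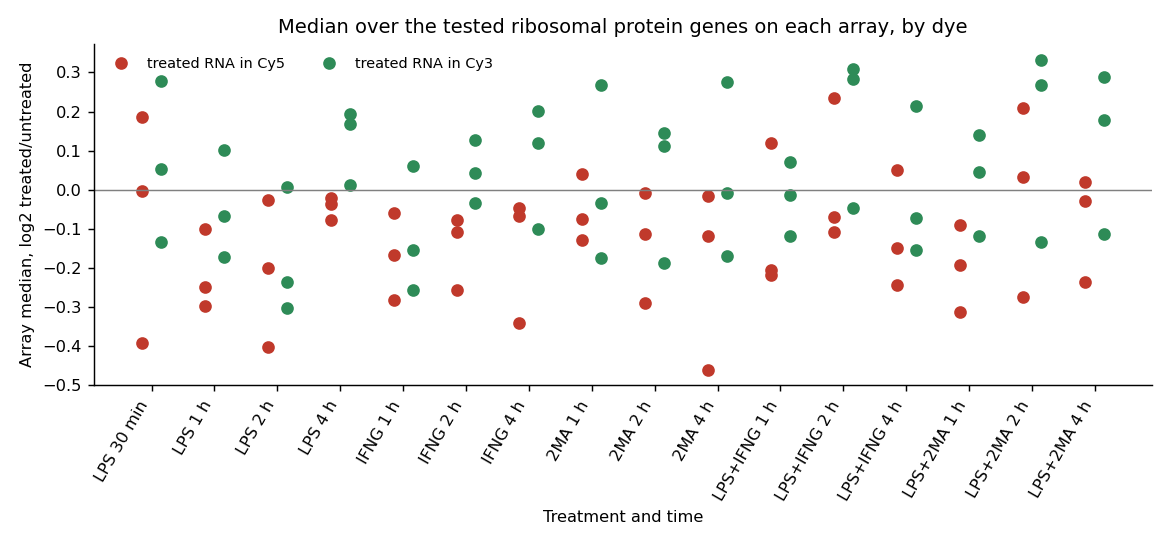
Median log2 ratio of treated over untreated over the tested ribosomal protein genes on each of 96 arrays (vertical axis) in 16 groups (horizontal axis), with treated RNA in Cy5 (red) or Cy3 (green). Red points lie below 0 on 40 of 48 arrays and green points on 22 of 48.

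Adding a second ligand to LPS was compared with LPS alone at the same time; both differences share the LPS samples. The tested genes stood higher at 2 h with either second ligand. With IFNG the differences had a median of 0.29, 30 of 32 were above 0, and the set medians were 0.42, 0.25 and 0.20. With 2MA the median was 0.25, 28 of 32 were above 0, and the set medians were 0.45, 0.26 and 0.08. Over all features the medians were 0.01 in both. All 6 set medians were above 0, although single sets had stood on both sides of 0 in each treatment.

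Few single genes passed the test of that difference. With IFNG at 2 h 2 of 32 genes were called, or 6.25%, against 2.74% of features, and 11 of 32 (34.4%) had an unadjusted p under 0.05, against 11% of features. Rpl35a was higher by 0.55 (SE 0.14; limma adjusted p 0.025), with differences of 0.61, 0.45 and 0.60 in sets 1 to 3. Rpl13 was higher by 0.49 (SE 0.14; limma adjusted p 0.0499), with 0.39, 0.57 and 0.49. Each was above 0 in all 3 sets, and both calls were lost when any 1 set was left out, which left 0 genes called. Sets of the same number deviated together in LPS and in the joint treatments, with correlations of 0.119 to 0.730 in 18 pairs. With the set number as a block 4 genes were called (Rpl13, Rpl26, Rpl35a and Rpl41; 3.97% of features), and with a block for each set within a time 5 were, Rpl10a in addition (6.32% of features).

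With 2MA at 2 h 0 genes were called by limma (0.0949% of features), and 6 of 32 (18.8%) had an unadjusted p under 0.05 (4.8% of features). Rpl41 differed most there, by 0.48 (SE 0.15; limma adjusted p 0.395), with 0.70, 0.44 and 0.31 in the sets. At 1 h the medians of the differences were 0.04 with IFNG and 0.06 with 2MA, with 0 genes called by limma in each, against 1.01% and 0.0776% of features. In each, 1 gene had an unadjusted p under 0.05, against 3.05% and 2.17% of features. At 4 h they were -0.07 and -0.01, with 0 genes called by limma, against 4.15% and 0.354% of features. None had an unadjusted p under 0.05, against 11.6% and 5.73% of features.

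**Figure D5:**
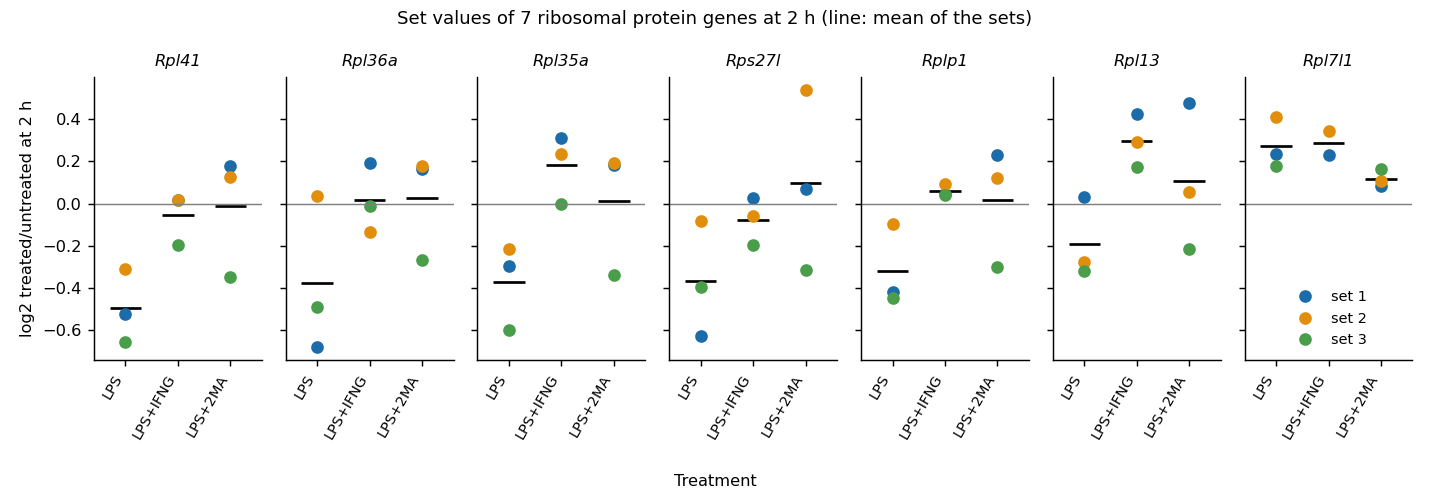
Log2 ratio of treated over untreated at 2 h (vertical axis) of 7 ribosomal protein genes in cells given LPS, LPS with IFNG or LPS with 2MA (horizontal axis); coloured points are sets and black lines their means. The Rpl41 points lie at -0.65 to -0.31 with LPS and at -0.19 to 0.02 with LPS and IFNG, without overlap, while the Rpl7l1 points lie above 0 in each treatment. The Rpl41 difference between LPS with IFNG and LPS was not called without a block.

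The departure of the joint response from the sum of the single responses was tested as well. The labels do not state whether the responses of a set and time share untreated RNA. Shared untreated RNA would not cancel in a departure, and its part was not tested. The IFNG and 2MA departures at a time also share the LPS samples. Without a block, 0 of 32 genes were called by limma in the 6 comparisons, against 0.0776%, 0.371% and 2.71% of features for IFNG at 1, 2 and 4 h and 0.0173%, 0.0173% and 0.0604% for 2MA. The genes with an unadjusted p under 0.05 numbered 2, 11 and 0 of 32 for IFNG at 1, 2 and 4 h, against 1.66%, 6.18% and 9.43% of features, and 0, 7 and 0 for 2MA, against 2.52%, 2.74% and 3.64%. The median departure at 2 h was 0.34 with IFNG and 0.29 with 2MA. A block for the set number gave 1 call for IFNG at 2 h, that of Rpl41, whose joint response lay above the sum by 0.66 (SE 0.16; limma adjusted p 0.0434; 0.578% of features called). With a block for each set within a time 4 were, Rpl13, Rpl26, Rpl35a and Rpl41 (1.11% of features). In the other 5 comparisons 0 genes were called by limma with either block, against 0.0345% to 5.71% of features. For 2MA at 2 h 13 genes had an unadjusted p under 0.05 with the set number as a block. With a block for each set within a time 16 did. In the rest of these 5 comparisons 0 to 7 genes did. The share of all features at that unadjusted p was not computed with a block. IFNG alone, 2MA alone and LPS with 2MA gave 0 of 32 genes changing with time in limma's F test, against 3.74%, 0.285% and 16.5% of features.

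Members with related sequence or known second roles are given side by side. Rpl22, which binds viral and cellular RNA, and its paralogue Rpl22l1 both varied widely between sets. At LPS 2 h Rpl22 had set values of -0.66, 0.14 and -0.36 and Rpl22l1 of -0.61, 0.40 and -0.58. Set 2 was above 0 and the other sets below it in both, and neither was called in any group without a block or with the set number as a block. With a block for each set within a time, Rpl22 was called at LPS 2 h (limma adjusted p 0.0283). Rpl22l1 had a residual SD of 0.391, against a median of 0.207 among the tested genes. Rps3 had set values of -0.34, 0.14 and -0.57 at LPS 2 h and was not called in any group. Rpl11 was the least variable over the groups, with an SD of its means of 0.076 and means from -0.07 to 0.21. Rps28 was the most variable, at 0.17, and 32.5% of features varied more than it did. Rpl3l, typical of striated muscle, and Rpl39l, typical of testis, were not called in any group without a block or with the set number as a block. With a block for each set within a time, Rpl39l was called in LPS with IFNG at 1 h (-0.21; limma adjusted p 0.0361).

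Other genes of the translation machinery were read from lists. Messages with a TOP motif that encode no ribosomal protein had 10 tested genes, and in LPS 0 were called at any time; at 2 h 7 of 10 were below 0, at a median of -0.07. Mitochondrial ribosomal protein genes, which encode a separate ribosome, had 59 tested genes. Their median was -0.12 at LPS 1 h with 49 of 59 below 0 and -0.15 at LPS 2 h with 47 of 59 below 0, so these too stood mostly below 0 there. At 2 h 2 rose and 8 fell, and at 4 h 7 rose and 10 fell, shares close to the 16% and 28.6% of features called at these times. Mrps6 fell by 0.88 on the log2 scale at 4 h, and Mrpl52 rose by 1.05. Their differences between LPS with IFNG and LPS at 2 h had a median of 0.12, against 0.29 for the cytosolic genes.

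Genes of ribosome assembly stood on the other side of 0 from the ribosomal protein genes at 1 and 2 h of LPS. Their medians were 0.01 at 30 min, 0.09 at 1 h, 0.17 at 2 h and 0.05 at 4 h. Of 46 tested, 12 rose and 0 fell at LPS 2 h, where the 32 ribosomal protein genes had a median of -0.20. Among them Riok2, a kinase of small subunit maturation, rose by 0.55, Nmd3, an export adaptor of the large subunit, by 0.41 and Nop58, a nucleolar core protein of box C/D particles, by 0.41. At 4 h 9 rose and 3 fell, in LPS with IFNG at 4 h 6 rose and 9 fell (median -0.09), and Sdad1, a large subunit assembly factor, rose by 0.80 at LPS 4 h. Eif6, which keeps the large subunit from joining too early, rose at both times, by 0.42 and 0.46. Of 28 genes listed by initiation factor (Eif) symbols 6 rose and 2 fell at LPS 2 h and 4 rose and 7 fell at 4 h. The lists overlap. These counts include the kinases Eif2ak2 and Eif2ak4, also counted in growth signalling below, and Eif6, also counted in assembly. Of 8 genes listed by elongation and termination symbols 2 rose and 1 fell at 2 h and 3 rose and 1 fell at 4 h. The release factor Etf1 stood at 0.90 at 4 h. The fall at both times was that of Eef1aknmt (-0.25 and -0.32), a methyltransferase taken in by its symbol and not itself an elongation factor. Eef1e1, which rose at 4 h (0.29), was also taken in by its symbol. Of all features 16% were called at 2 h and 28.6% at 4 h. Of 16 growth signalling genes 2 rose and 5 fell at 4 h. Myc, a transcription factor known to drive ribosome production, rose by 4.19 at 2 h and 3.95 at 4 h, and at 4 h the 5 falls were those of the mTOR inhibitors Ddit4 (-1.07) and Deptor (-0.75), the mTOR complex subunit Mlst8 (-0.45), and the kinases Eif2ak4 (-0.80) and Eef2k (-0.59). The other rise at 4 h was that of the kinase Eif2ak2 (2.00). Of 3 small nucleolar RNA host genes, which also carry TOP motifs, Snhg5 fell at 1 h (-0.94) and 4 h (-0.95) and Gas5 at 1 h (-0.35). At 2 h all 3 were above 0, at a median of 0.13, and none passed the test.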

How the data were processed

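The deposited log2 values are read as Cy5 over Cy3 of each 2-colour array, per the labels' channel descriptions; image analysis, background correction and normalisation are not given in the sources used here, and how values were centred stays unknown. Values of exactly 0 were read as missing. The sign was reversed wherever the treated RNA carried Cy3, and both dye orientations of a set were averaged. A probe with a value in only 1 orientation of a set was taken as missing in that set. Names came from the platform annotation of 2016, and probes of 1 gene were averaged. A probe was tested where every group had at least 2 of 3 set values (13698 probes, 11593 features, 1.03% of set values missing). In limma 3.58.1 (R 4.3.3, the data.table package 1.17.8) group means were fitted to 48 set values with empirical Bayes moderation (prior degrees of freedom 5.887), two-sided, with Benjamini-Hochberg adjustment over all features and a threshold of 0.05. Plots used matplotlib 3.10.9 in Python 3.11.15.

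The members and lists were chosen with earlier results of these data known. The named genes are, per comparison, up to 5 called rises and 5 called falls with the same sign in all 3 sets, plus fixed members of known second roles, paralogues, the members of largest and smallest spread and called list genes; Rpl36a at LPS 2 h and Rpl7l1 where it had 2 sets or a set below 0 fall outside that rule and were named after their values were seen, as were Rpl30, Rpl36 and the genes called only with a block. Set numbers were taken to pair LPS with the joint treatments in the set differences and the block fits, and the fit without a block does not use them. Same-numbered sets correlated above 0.1 in all 18 pairs. Sets of different number were not compared, so these correlations cannot show that the number is a pairing. Alternatives changed the treatment of zeros, centring, scaling, filter, probe choice, dye model, block, moderation, samples fitted and sets. Per-sample columns not used number 0. One 2MA label gives its dose in another unit than its channel label; the channel label was used. Array number limits precision.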

Additional observations from a re-analysis of the deposited data

Results flagged for a closer look

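The responses of 3 genes differed between the times of 1 treatment by limma's F test, adjusted over all features. In LPS, Rpl35a (adjusted p 0.0441) had means of -0.02, -0.31, -0.37 and 0.11 at 30 min, 1 h, 2 h and 4 h, and Rplp1 (adjusted p 0.00548) had 0.07, -0.23, -0.32 and 0.22. In LPS with IFNG, Rpl13 (adjusted p 0.0341) had -0.19, 0.30 and 0.10 at 1, 2 and 4 h. Groups of 3 sets are too small for a test of single outlying sets.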

How the results depend on the processing

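The 13 calls in responses and 2 in differences kept their direction in every alternative that could test them, 15 of 15. Robust moderation, probe choice, the filter on the groups compared and fits of 1 time left these values unchanged. Their direction could therefore not change there, and the calls had been picked on these same data. The call was lost in at most 1 alternative for 2 of the 15, Rpl41 at LPS 2 h (lost from Cy3 arrays alone) and Rps27l at LPS with IFNG 4 h (lost without set 1). Keeping zeros and centring arrays on nonzero values moved no count of called genes by over 1.5 times. With the filter set only on the groups compared, 54 members could be tested somewhere, and no further member was called in a response.

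Counts of called members that moved by over 1.5 times follow. In the fits without set 1, 2 and 3, 7.39%, 10.9% and 9.95% of responses over all features and groups were called. Leaving out 1 set gave 0 to 1 for LPS 1 h, 1 to 12 for LPS 2 h, 0 for LPS 4 h, 0 to 1 for LPS+IFNG 2 h, 0 to 5 for LPS+IFNG 4 h, 0 to 1 for LPS+2MA 4 h, 0 for the LPS+IFNG difference at 2 h, 0 to 2 for the LPS times and 0 for the LPS+IFNG times. With the set number as a replicate block they were 3 (LPS 1 h), 2 (LPS 4 h), 1 (2MA 4 h), 5 (LPS+IFNG 2 h), 3 (LPS+2MA 4 h), 4 (LPS+IFNG difference at 2 h), 1 (departure of LPS+IFNG from the sum at 2 h, added after seeing the data), 4 (LPS times) and 2 (LPS+IFNG times). Features called in these responses were 7.57%, 32.9%, 3.45%, 24.9% and 37.5% in the same order, 3.97% in the difference and 0.578% in the departure. With a block within each time, added after seeing the data, the counts of called members were 2 (LPS 1 h), 15 (LPS 2 h), 3 (LPS 4 h), 1 (2MA 4 h), 1 (LPS+IFNG 1 h), 7 (LPS+IFNG 2 h), 5 (LPS+IFNG 4 h), 3 (LPS+2MA 4 h), 5 (LPS+IFNG difference at 2 h), 4 (the same departure), 7 (LPS times), 3 (LPS+IFNG times) and 1 (LPS+2MA times). Features called in these responses were 11%, 25.8%, 37.4%, 6.57%, 14%, 30.1%, 42.7% and 41.9% in the same order. They were 6.32% in the difference and 1.11% in the departure. Shares of features were not computed for the time tests with either block. The block lost no call of a response or difference.

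From Cy5 arrays alone the counts were 9, 12 and 6 for LPS at 1, 2 and 4 h, 2, 3 and 6 for IFNG, 5, 2 and 3 for 2MA, 12, 4 and 9 for LPS+IFNG and 7, 3 and 6 for LPS+2MA, with 0 for the LPS+IFNG difference at 2 h and for the LPS and LPS+IFNG times. From Cy3 arrays alone they were 0, 1 and 4 for LPS, 3 for IFNG 4 h, 2 for 2MA at 1 h and 4 h each, 6 and 5 for LPS+IFNG at 2 and 4 h, 3 for LPS+2MA 4 h, and 0 for the same difference and times. Medians moved by over the SD of the set medians from Cy5 arrays at LPS 30 min (-0.0914), 1 h (-0.22) and 4 h (-0.0551), IFNG 1 h (-0.19) and 2 h (-0.15), 2MA 1 h (-0.10) and LPS+2MA 1 h (-0.23). From Cy3 arrays they did so at LPS 30 min (0.0822), 1 h (-0.0415) and 4 h (0.15), IFNG 2 h (0.0675) and LPS+2MA 1 h (0.0309). Pooled over the responses, Cy5 arrays alone called 17.4% for members and 19.2% for all features. For Cy3 arrays alone these shares were 5.08% and 14.4%. Shares of features in each group were not computed for these fits. A dye effect does not cancel in arrays of 1 orientation, so these counts hold it too.

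Scaling arrays to a common spread gave 2 (LPS 1 h), 0 (LPS 4 h), 1 (IFNG 1 h), 0 (LPS+IFNG 2 h), 1 (LPS+IFNG 4 h), 0 (LPS+2MA 4 h), 1 (LPS+IFNG difference at 2 h), 1 (LPS times) and 0 (LPS+IFNG times). The 96 arrays with a dye term gave 0 (LPS 1 h), 2 (LPS+2MA 4 h) and 0 (the difference). Fits of 1 time gave 2 (LPS 1 h), 1 (LPS 2 h), 0 (LPS 4 h), 0 (LPS+IFNG 2 h) and 0 (the difference), on fewer samples. Requiring a value on all 96 arrays left 18 members and gave 2 (LPS 2 h), 0 (LPS 4 h), 0 (LPS+IFNG 2 h), 0 (LPS+2MA 4 h), 0 (the difference) and 0 (LPS+IFNG times). Taking 1 probe per gene gave 0 (LPS 4 h) and 1 (the difference), although each member has 1 probe and its own values did not change. The filter set only on the groups compared and robust moderation each gave 1 for the difference. Leaving out Rpl7l1 gave 0 (LPS 4 h), 1 (LPS+IFNG 2 h) and 0 (LPS+2MA 4 h). Pooled over the responses, member calls were 2.15% with scaling, 2.73% with the dye term, 1.25% in fits of 1 time and 1.74% with values on all 96 arrays. Over all features these shares were 10.4%, 13.3%, 11.2% and 13.3%. Shares of features in each group were not computed for these fits. The causes of the moved counts were not tested. Ratios hold no signal over background, so its part in the missing values was not tested either.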
